A study of Mus musculus with 4 samples.

Results

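The histone genes on a mouse expression array were followed in embryonic hearts that lose Hdac3, a histone deacetylase. They were taken as the probes, controls left out, whose gene name in the scanner files starts with Hist1h, Hist2h, Hist3h, Hist4h, H2af, H3f3 or H1f. The rule gave 64 genes of the 30199 gene names on the array. Of these, 49 carry the names of the histone gene clusters (Hist1 to Hist4) and are called clustered here, and 15 have other names and are called variant. Together they had 80 probes, and each gene was represented by the probe with the highest mean processed signal. A gene entered the test if that probe was well above background throughout the 4 arrays for the mutant pools, the control pools or both, and 60 genes met this, 47 clustered and 13 variant. The clustered genes Hist1h1d, a linker histone, and Hist3h2bb-ps, a pseudogene, and the variant genes H1fnt, a linker histone of the testis, and H2afb1 did not pass. Of the 60 genes, 56 were well above background in all 8 channels, and no probe of a histone gene was saturated.

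The hearts were dissected at embryonic day 9.5 from embryos on a mixed CD1/B6/129 background. Mutant embryos were Nkx2.5Cre; Hdac3f/f, in which Cre is driven from Nkx2-5, a gene of cardiac progenitors, and controls were Hdac3f/f littermates with no Cre named. The floxed Hdac3 alleles are thus shared by both groups, and deletion cannot be told apart from the presence of Cre. Each of 4 two-colour arrays on 1 slide compared a pool of 3 mutant hearts with a pool of 3 control hearts, which gives 4 pairs of pools (n = 4), and the heart is measured as a mixture of its cell types. All 14 cardiomyocyte markers were well above background in every channel. For replicates 2 to 4 the description field speaks of embryonic stem cells, whereas titles, sources and genotypes name hearts. Of 12 stem cell markers 8 were measured, and Pou5f1 and Dppa2 were well above background in no channel.

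The direction of the ratios is not settled. The labels put mutant RNA in Cy5 on every array. The authors' deposited columns, named as mutant against wild type, followed the scanner's Cy5 over Cy3 ratio on arrays 1 and 2, with correlations of 0.932 and 0.940 among bright probes, and were its opposite on arrays 3 and 4, with correlations of -0.992 and -0.951. With the deposited signs and over 39392 probes, arrays 1 and 2 correlated at 0.565 and arrays 3 and 4 at 0.446. Between these pairs the correlations were -0.046 (arrays 1 and 3), -0.418 (1 and 4), -0.069 (2 and 3) and -0.26 (2 and 4). All log2 ratios below are mutant over control with the deposited signs, and the class, family and list medians are also given with all arrays read as labelled, which turns the sign on arrays 3 and 4. Arrays 1 and 2 have the same values under both readings. Mutant and control channels below, in signals and in the filter, were assigned by the deposited signs. On arrays 3 and 4 the labels name these channels the other way round. Processed signals thus lend no separate support to a direction.

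Histones package DNA into nucleosomes, with H2A, H2B, H3 and H4 in the core and H1 bound to the linker DNA between them. Clustered histone genes are, as a rule, transcribed mainly in S phase, when new DNA must be packaged. They mostly have no introns and give mRNAs that end in a stem loop in place of a poly(A) tail. The stem loop is bound by Slbp, which acts in the formation, translation and turnover of these mRNAs. The classes here go by name, so single members can depart from this rule. Variant genes such as H2afz, which encodes H2A.Z, and H3f3a, which encodes H3.3, are expressed throughout the cell cycle from spliced, polyadenylated mRNAs, and their products replace the core histones at active or specialised chromatin.

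The probe sequences show which part of a histone mRNA was read. A search of all probes for a hairpin, a 6-base arm starting with GG, a 4-base loop and the arm's reverse complement, found it in 6 of 57 probes of clustered genes (10.5%), in 0 of 23 probes of variant genes and in 31 of 39429 probes on the array (0.0786%). These are shown because they mark probes that reach the stem loop at the 3′ end of histone mRNAs. The stretch of Hist2h2aa2 is the start of its probe, so most of that probe lies past the stem loop. Capitals mark the hairpin, each stretch is 30 bases of a 60-base probe, and the positions are those of the whole probe in mm9, the build named in the files.
Hist2h2bb: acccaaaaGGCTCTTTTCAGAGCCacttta
Hist1h3i: ataacaaaaGGCTCTTTTCAGAGCCccctc
Hist1h3a: aattaaccaaaGGCTCTTTTCAGAGCCaca
Hist1h3g: cactttaaaGGCTCTTCTTAGAGCCaccca
Hist1h4m: caactaaaGGCCCTTTTCAGGGCCatccaa
Hist2h2aa2 other probe: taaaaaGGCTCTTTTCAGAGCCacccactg
The Hist2h2bb probe lies at chr3:96074056-96074115 on the plus strand, that of Hist1h3i at chr13:21874784-21874843 on the minus strand, and that of Hist1h4m at chr13:21903960-21904019 on the plus strand. The polyadenylation signal AATAAA was in 3 of 57 probes of clustered genes (5.26%), in 3 of 23 probes of variant genes (13%) and in 12.6% of all probes (4965 of 39429; forward strand only). The probe used for H2afz was among them.

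Other probes were much alike between members, and how far they separate them was not tested. Of the 64 genes, 8 had probes that share at least 40 identical aligned bases with another of the group over the end of the H2A coding sequence, namely 7 clustered H2A genes and the variant H2afj. Pairs past this limit had 40 to 55 identical bases, and the values of these genes are described together as 1 shared reading. In the class and family counts and medians each gene still counts singly. The aligned stretches below show how alike they are, with capitals where a base differs from the Hist1h2af probe.
Hist1h2af: gcccaagaagaccgagagccaccataagcc
Hist1h2ak: gcccaagaagaccgagaCccaccaCaagGc
Hist1h2an: gccGaagaagaccgagagccaccaCaagGc
Hist2h2aa2: gcccaagaagacGgagagccaccataagGc
Hist2h2ac: gcccaagaagaccgagagccacAaGGCTAA
H2afj: gcccaagaagacGgagagccaGAaGGTgAA
The probes of Hist1h2ag and Hist1h2ah, whose stretches differ from that of Hist1h2af at 2 bases, complete the set. Probes were aligned only with each other, and matches to other histone mRNAs were not searched. The H4 genes Hist1h4c, Hist1h4d and Hist1h4j formed a set of 3, and Hist1h3c and Hist1h3f a pair with 45 identical bases. Mean signals ran from 332.8 to 7717.1 in this H4 set and from 337.5 to 2859.7 in the H3 pair. In the H2A set they ran from 91595.9 to 113535.7.

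Clustered histone genes read slightly above variant genes and above the bulk of the array. Their median of mean log2 ratios was 0.14, with 40 of 47 means above 0, against 0.040 and 8 of 13 for variant genes. The variant median was the value of H2afj, a gene of the shared H2A reading. With 1 value for each set of alike probes the medians were 0.16 over 38 clustered values and 0.046 over 12 variant genes. Over all 19598 genes tested the median was 0.011, and 53.5% of means lay above 0. On arrays 1 to 4 the clustered median was 0.10, 0.026, 0.20 and 0.29, and the variant median was -0.028, 0.005, 0.074 and 0.061. The clustered median was the higher of the pair on every array, by 0.13, 0.021, 0.12 and 0.23 (mean 0.13 ± 0.083 SD, n = 4 arrays). Arrays 3 and 4 had the higher clustered medians, and those of array 2 were nearly equal between classes. Without the H1 genes, the 42 other clustered genes had medians of 0.08, -0.006, 0.19 and 0.22 on arrays 1 to 4. On array 2 they thus lay below the variant median. The difference between the medians of means was 0.104, and 0.072 with the mean of a gene's probes. With all arrays read as labelled the medians were -0.14 for clustered and -0.056 for variant genes, so the order turned.

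**Figure D1:**
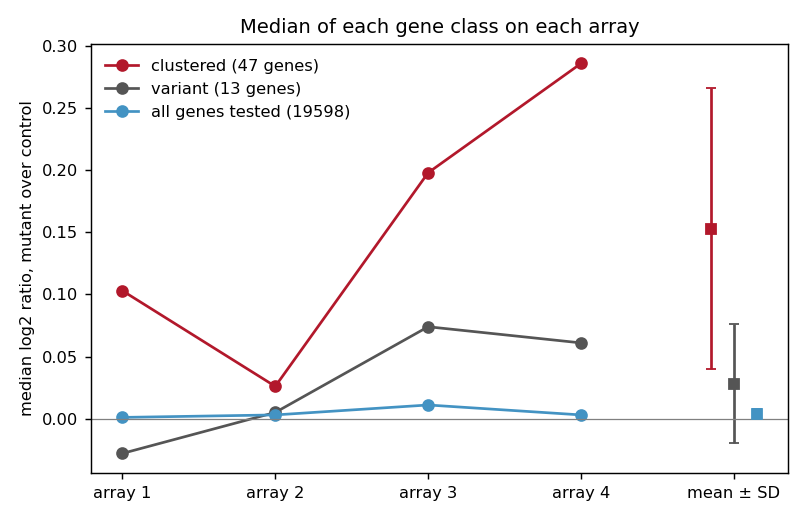
The plot gives the median log2 ratio (mutant over control, deposited signs, y axis) of clustered histone genes, variant histone genes and all genes tested on each of 4 arrays, with the mean and SD of the 4 medians at the right; lines join a class and carry no order. The clustered medians, from 0.026 to 0.29, lie above the variant medians on each array, while the medians of all genes stay between 0.001 and 0.011.

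No histone gene passed the test. With limma and Benjamini-Hochberg adjustment at 0.05, 0 of 60 histone genes and 0 of 19598 genes were called (0.00%), and the smallest adjusted p among histone genes was 0.585. At an unadjusted p below 0.05, 12 histone genes had a mean above 0, 11 clustered and 1 variant, where 3.88% of all genes did, and 0 had a mean below 0, where 4.57% of all genes did. Read as labelled, 6 had a mean above 0, against 7.56% of all genes, and 14 below, against 7.52%, so the larger count changed sides. All 6 above 0 were genes of the shared H2A reading, so they are not 6 separate readings. Above 0 on all 4 arrays were 12 histone genes, 10 clustered and 2 variant, against a background of 10.0%. Below 0 on all 4 arrays was 1, Hist1h2bp, against 9.72%. Hist1h2bp and Hist1h2bq passed the filter on dim probes through their control channels alone. Hist2h2ab and the variant H2afb2-ps passed through their mutant channels alone. In each case these are the channels on the side of the higher mean, though that of Hist1h2bq was near 0, at -0.003. With probes required to be above background in both channels none of these genes is tested, and 11 histone genes had an unadjusted p below 0.05 and a mean above 0. Read as labelled, 5 histone genes were above 0 on all arrays and 16 below, against 13.2% and 13.7% of all genes. Of these 5, 3 were of the shared H2A reading. As labelled, 0 histone genes passed while 0.719% of all genes did (limma, 141 genes, smallest adjusted p among histone genes 0.121). With a dye term in the fit, 19 histone genes had an unadjusted p below 0.05 and a mean above 0, where 7.22% of all genes did, and 0 passed after adjustment.

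The linker histone genes of the Hist1 cluster were the family with the highest median of mean ratios. All 5 tested were above 0 on all 4 arrays with an unadjusted p below 0.05, and their median was 0.46. On array 4 alone the H4 median was higher, at 0.84 against 0.82. Hist1h1b, which encodes H1.5, had processed signals of 8307, 9151, 13252 and 6903 in the mutant channels of arrays 1 to 4 and of 6845, 7849, 7752 and 3226 in the control channels. The channel taken as mutant by the deposited signs was the brighter of the pair on each array. The gap was largest on arrays 3 and 4, where the labels give that channel as control. Its deposited log2 ratios were 0.23, 0.16, 0.84 and 1.09, with a mean of 0.58 ± 0.46 (SD, n = 4), a 1.49-fold ratio (limma, adjusted p = 0.585).

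Hist1h1e, which encodes H1.4, read 0.14, 0.28, 0.42 and 1.08, with a mean of 0.48 ± 0.41 (SD, n = 4). Hist1h1a, which encodes H1.1, read 0.21, 0.31, 0.53 and 0.82, with a mean of 0.46 ± 0.27. Hist1h1c, which encodes H1.2, was the steadiest of the family at 0.26, 0.26, 0.44 and 0.27, with a mean of 0.305 ± 0.087. Hist1h1t, the linker histone of the testis, read 0.10, 0.15, 0.70 and 0.32 (mean 0.32 ± 0.27), from a probe with processed signals between 22.0 and 80.4. The adjusted p by limma was 0.585 for each of the 5 genes. On arrays 1 and 2, whose direction both sources share, the 5 genes lay between 0.10 and 0.31, and on arrays 3 and 4 between 0.27 and 1.09. Read as labelled, the family therefore had a median of -0.21, with means of -0.39 for Hist1h1b, -0.27 for Hist1h1e, -0.21 for Hist1h1a, -0.19 for Hist1h1t and -0.047 for Hist1h1c. The deposited log2 ratios of Hist1h1d, whose probe was well above background in no channel, were not tested.

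**Figure D2:**
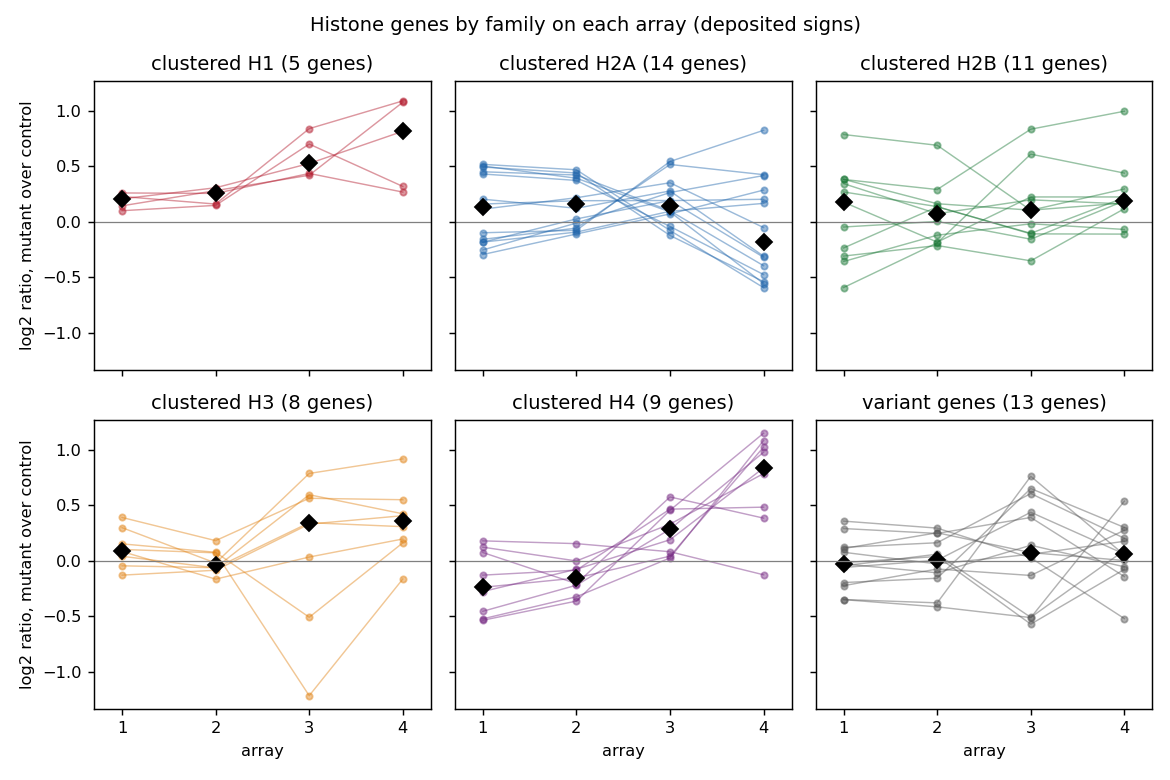
Each panel gives the log2 ratio (mutant over control, deposited signs, y axis) of every tested gene of a family on arrays 1 to 4 (x axis); a line joins the values of a gene and carries no order, and black diamonds are the family median. The 5 H1 genes lie above 0 on each array, 6 of 9 H4 genes lie below 0 on arrays 1 and 2 and above 0 on arrays 3 and 4, and the H2A genes fall into a group that is high on arrays 1 and 2 and a group that is low there.

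The promoters of the 5 linker histone genes are shown because these members read alike. Promoters were found in RefSeq (GRCm38.p6) for 52 of the 64 genes, from 250 bases before to 50 after the gene's start. Printed are the 150 bases before the start, with capitals where a motif matches on either strand; overlapping matches run together. The motifs are CCAAT, the box bound by NF-Y, and TATAA, the core of the TATA box. With them are AAACACA, an element known from H1 promoters, and ATTTGCAT, the octamer known from H2B promoters.
Hist1h1b: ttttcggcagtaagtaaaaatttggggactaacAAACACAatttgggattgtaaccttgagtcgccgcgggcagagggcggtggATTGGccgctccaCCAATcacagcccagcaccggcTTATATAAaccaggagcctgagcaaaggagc
Hist1h1e: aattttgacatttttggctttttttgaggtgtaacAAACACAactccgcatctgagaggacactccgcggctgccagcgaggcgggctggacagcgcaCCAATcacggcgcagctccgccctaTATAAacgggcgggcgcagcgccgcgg
Hist1h1a: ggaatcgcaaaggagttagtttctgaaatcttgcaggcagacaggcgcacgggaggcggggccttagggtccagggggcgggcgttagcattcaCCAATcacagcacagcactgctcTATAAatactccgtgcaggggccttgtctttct
Hist1h1c: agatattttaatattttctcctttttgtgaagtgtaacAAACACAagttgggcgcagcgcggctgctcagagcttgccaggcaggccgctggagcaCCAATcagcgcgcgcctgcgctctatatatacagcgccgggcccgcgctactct
Hist1h1t: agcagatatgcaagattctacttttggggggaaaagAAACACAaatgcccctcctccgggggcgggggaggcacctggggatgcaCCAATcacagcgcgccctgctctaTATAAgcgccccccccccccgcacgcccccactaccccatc
These stretches lie at chr13:21780626-21780775 (minus), chr13:23622559-23622708 (minus), chr13:23763518-23763667 (plus), chr13:23738657-23738806 (plus) and chr13:23695661-23695810 (plus). Over the whole windows, AAACACA was in 5 of 6 H1 promoters (83.3%; Hist1h1a had none), in 22.5% of 40 clustered promoters and in 7.14% of 27025 promoters. CCAAT was in all 6 H1 promoters, in 35 of 40 clustered promoters (87.5%) and in 37.9% of all promoters, but in 2 of 7 H4 promoters (28.6%). TATAA was in 33 of 40 clustered (82.5%) and 1 of 12 variant promoters (8.33%), against 25.5% of all.

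Of the 14 clustered H2A genes, which encode the core histone H2A, none was above or below 0 on all arrays. The family median was 0.076 (0.049 as labelled), with 12 of 14 means above 0, and its medians on arrays 1 to 4 were 0.14, 0.16, 0.15 and -0.18. The array 4 value came from the genes of the shared reading, whose medians, with H2afj, were 0.44, 0.38, 0.058 and -0.50. All 8 of these were above 0 on arrays 1 and 2 and 0 were above 0 on both of arrays 3 and 4. Hist1h2ak, for example, read 0.43, 0.37, -0.042 and -0.48, with a mean of 0.072 ± 0.42 (SD, n = 4; limma, adjusted p = 0.903), and its processed signals lay between 78139 and 128292. Hist1h2ah read 0.52, 0.47, -0.078 and -0.59. Hist1h2af read 0.50, 0.39, 0.089 and -0.56, and Hist2h2ac 0.45, 0.42, 0.099 and -0.40. Hist1h2an was nearer to 0, at 0.20, 0.12, 0.28 and -0.31. Read as labelled, all 8 means lay above 0, with a median of 0.31, and Hist1h2ag, Hist1h2ah and Hist1h2ak were above 0 on all 4 arrays.

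The 7 clustered H2A genes outside the shared set had other values. Their medians were -0.18, -0.057, 0.26 and 0.29 on arrays 1 to 4, with a median of means of 0.104 (-0.19 as labelled), and 5 of 7 were below 0 on arrays 1 and 2 and above 0 on arrays 3 and 4. Hist1h2ab read -0.099, -0.077, 0.54 and 0.83 and Hist2h2ab -0.16, -0.057, 0.52 and 0.43. Hist2h2ab, counted among the 5, was dim, with processed signals of 8.2 to 37.4, and well above background in only 3 of 4 control channels. Hist1h2aa, an H2A of the testis, read -0.30, -0.11, 0.071 and 0.29, with a mean of -0.012 ± 0.25 (SD, n = 4). Hist1h2ak had both kinds of probe. Its other probe, at chr13:21845637-21845696, read -0.19, -0.36, 0.22 and 0.30, of opposite sign to the shared reading on each array. For this gene the direction depended on the probe.

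H2B genes held the member with the highest mean. Hist2h2bb, on the probe with the stem loop, had processed signals of 919, 838, 1292 and 625 in the mutant and 700, 682, 698 and 296 in the control channels. The mutant channel was the brighter on all arrays. Its log2 ratios were 0.38, 0.29, 0.835 and 0.997, with a mean of 0.63 ± 0.34 (SD, n = 4), a 1.54-fold ratio (limma, adjusted p = 0.585), and -0.29 as labelled. A second Hist2h2bb probe, which holds AATAAA and lies at chr3:96082754-96082813, read -0.029, 0.10, 0.32 and 0.44, with a mean of 0.21. That probe was dim, with a mean signal of 28.5 against 756.2 for the stem loop probe. The promoter stretch of Hist2h2bb, at chr3:96269550-96269699 (plus) in GRCm38.p6, holds the octamer together with CCAAT and TATAA.
Hist2h2bb: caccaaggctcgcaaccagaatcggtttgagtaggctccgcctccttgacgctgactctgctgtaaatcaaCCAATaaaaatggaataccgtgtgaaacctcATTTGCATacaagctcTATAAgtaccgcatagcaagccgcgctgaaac
The octamer was in 5 of 9 H2B promoters (55.6%), in 7 of 13 H2A promoters (53.8%), in 0 of 6 H1, 0 of 5 H3 and 0 of 7 H4 promoters and in 1.75% of all promoters.

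Hist1h2bg read 0.79, 0.69, 0.10 and 0.30, with a mean of 0.47 ± 0.32 (SD, n = 4; limma, adjusted p = 0.585), and stayed above 0 as labelled, at 0.27. Of the 12 genes above 0 with an unadjusted p below 0.05 it had the highest mean as labelled. Hist1h2bm and Hist1h2ba, an H2B of the testis, were also above 0 on all arrays, at means of 0.205 and 0.19. At the low end, Hist1h2bp read -0.36, -0.12, -0.018 and -0.069, with a mean of -0.14 ± 0.15 (adjusted p = 0.642), and was well above background in 3 of 4 mutant channels. Hist2h2be read -0.31, -0.21, -0.35 and 0.12, with a mean of -0.19 ± 0.21. The H2B family had a median of 0.067, with 8 of 11 means above 0, and -0.054 as labelled.

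Among the 8 clustered H3 genes the means ran from -0.30 to 0.50 with a median of 0.14. Hist2h3b read 0.30, -0.020, 0.79 and 0.92, with a mean of 0.50 ± 0.44 (SD, n = 4; limma, adjusted p = 0.585). Hist1h3i, on a stem loop probe, was above 0 on all arrays at 0.39, 0.18, 0.56 and 0.55, with a mean of 0.42 ± 0.18 (limma, adjusted p = 0.585), and -0.14 as labelled. The lowest mean of any member was that of Hist1h3c, which read 0.10, 0.072, -1.22 and -0.16, a mean of -0.30 ± 0.62 (adjusted p = 0.686), and 0.0037 without replicate 3. Hist1h3f, which shares its probe stretch, read 0.15, 0.077, -0.51 and 0.16. Array 3 was the low one for both. The H3 median as labelled was -0.15.

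On the probes used, all 9 H4 genes had a mean above 0, with a median of 0.17, yet none was above 0 on all arrays. The family medians were -0.24, -0.155, 0.285 and 0.84 on arrays 1 to 4. Below 0 on arrays 1 and 2 and above 0 on arrays 3 and 4 were 6 of 9 genes. Hist1h4k read -0.54, -0.36, 0.46 and 1.15 (SD 0.78), Hist2h4, at chr3:96066951-96067010, read -0.455, -0.22, 0.285 and 0.98, and Hist4h4, at chr6:136752681-136752740, read -0.28, -0.076, 0.19 and 0.84. These probes are placed at different loci in the files and read with the same signs on each array; whether each also reads other H4 mRNAs was not tested. Read as labelled, the same 6 genes were below 0 on all 4 arrays, and the family median was -0.35. The other 3 were Hist1h4h, at 0.18, 0.155, 0.082 and -0.13, Hist1h4c, at 0.12, -0.001, 0.33 and 0.79, and the stem loop probe of Hist1h4m.

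**Figure D3:**
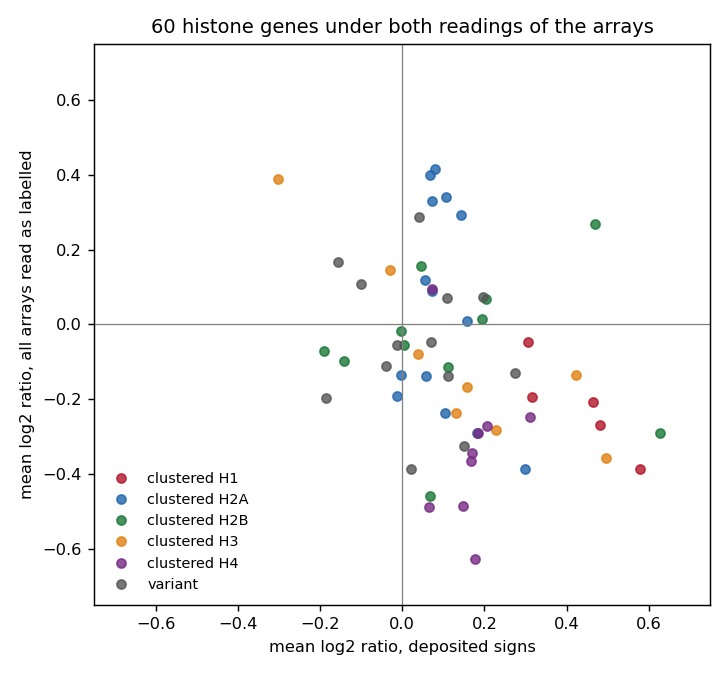
Each point is a tested histone gene, with its mean log2 ratio under the deposited signs on the x axis and with all arrays read as labelled on the y axis; colours give the family. Of 47 clustered genes, 27 lie at the lower right (above 0 as deposited, below 0 as labelled), including all 5 H1 and 8 of 9 H4 genes, and 13 lie at the upper right, 8 of them H2A genes.

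The 6 stem loop probes had means from 0.13 to 0.63 with a median of 0.23, all 6 above 0, where the 42 clustered genes read by other probes had a median of 0.11 with 35 above 0 (83.3%). Read as labelled, all 6 were below 0, from -0.29 to -0.14 with a median of -0.26, against a median of -0.11 and 27 of 42 below 0. On arrays 3 and 4 each was above 0, from 0.33 to 0.835 and from 0.30 to 0.997, while on arrays 1 and 2 their medians were 0.030 and -0.009. Hist1h3a read -0.13, -0.085, 0.33 and 0.41, Hist1h3g -0.045, -0.062, 0.60 and 0.42, and Hist1h4m 0.075, -0.21, 0.58 and 0.385. The stem loop probe of Hist2h2aa2, most of which lies past the loop, read -0.014, 0.044, 0.59 and 0.30. The gene's probe in the H2A coding end read 0.16, 0.19, 0.19 and -0.32. These 2 probes differed most on array 4. RNA was reverse transcribed from a T7 primer, per the labels' protocol, whose 3′ sequence the sources used here do not give, so how far mRNAs without a poly(A) tail entered the measurement was not tested.

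The clustered genes were also described by their place in the genome. The block of the Hist1 cluster at chr13:21814057-22132650 (mm9, 12 genes) had a median of 0.17, and the block at chr13:23622937-24026527 (22 genes) one of 0.12. The Hist2 cluster at chr3:96024171-96074115 (8 genes by name) had a median of 0.15, and the 2 tested Hist3 genes on chromosome 11 read 0.067 and 0.10. Hist2h3c2, counted among the 8, has no position in the files. Read as labelled, the 3 larger blocks had medians of -0.12, -0.14 and -0.18. Means within these blocks ran from -0.14 to 0.58, from -0.30 to 0.48 and from -0.19 to 0.63, so each block spread more widely than the medians differed. The probe of Hist1h2al lies apart from these blocks, at chr13:51299277-51299336. Hist1h2ag was left out of the second Hist1 block, although its listed position, chr13:23666685-23726365, falls there.

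The variant genes were spread around 0, with means from -0.18 to 0.27. H2afz, at chr3:137529723-137529782, had processed signals of 58894, 64844, 67935 and 78977 in the mutant and 66420, 72646, 94261 and 71538 in the control channels. The channel taken as control was the brighter on arrays 1 to 3, by most on array 3, where the labels give it as mutant. The deposited log2 ratios, normalised by a method that is not stated, were -0.016, 0.039, -0.57 and -0.077, with a mean of -0.16 ± 0.28 (SD, n = 4; limma, adjusted p = 0.691), and -0.018 without replicate 3. A second H2afz probe read -0.068, -0.087, -0.60 and 0.165. H3f3a, at chr1:182732757-182732816, read -0.045, 0.060, -0.51 and 0.094, with a mean of -0.10 ± 0.28 (adjusted p = 0.798), and 0.036 without replicate 3. A second H3f3a probe read -0.225, -0.10, -0.76 and 0.034. Array 3 stood apart for both genes and on both of their probes, and read as labelled both means were above 0, at 0.17 and 0.11.

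H3f3b, the second H3.3 gene, read -0.22, -0.074, -0.13 and 0.28, a mean of -0.039 ± 0.22. H2afv, which encodes H2A.Z.2, read -0.028, -0.11, 0.14 and -0.054, a mean of -0.013 ± 0.11, among the smallest spreads of the variants. H2afx, the variant phosphorylated at DNA breaks, read -0.35, -0.38, 0.76 and 0.053, a mean of 0.022 ± 0.53, and was below 0 on all arrays as labelled. H2afj is part of the shared H2A reading and had a mean of 0.040 ± 0.40. Its own second probe, at chr6:136758433-136758492, read 0.31, 0.29, 0.18 and -0.15.

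The macroH2A genes H2afy and H2afy2, whose large histones mark repressed chromatin, had means above 0. So had the like-named H2afy3, whose transcript is recorded as non-coding. H2afy read 0.29, 0.25, 0.39 and -0.14 (mean 0.20 ± 0.23, SD, n = 4), though another of its probes had a mean of -0.035. H2afy2 read -0.060, 0.005, 0.44 and 0.061 (mean 0.11 ± 0.22, and 0.002 without replicate 3), and the gene named H2afy3 read -0.20, -0.16, 0.65 and 0.30 (mean 0.15 ± 0.40). With all arrays read as labelled H2afy2 and H2afy3 had means of -0.14 and -0.33, and H2afy stayed above 0 at 0.072.

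Of the variant linker histones, H1f0, the H1 of resting and differentiated cells, read -0.35, -0.415, -0.51 and 0.54, with a mean of -0.18 ± 0.49 (SD, n = 4; limma, adjusted p = 0.753). Array 4 stood on the other side of 0. H1fx read 0.11, 0.25, 0.074 and 0.003, with a mean of 0.11 ± 0.105, and was above 0 on all arrays. H1foo, the H1 of the oocyte, read 0.077, -0.028, 0.059 and 0.18, a mean of 0.071 ± 0.084. H2afb2-ps, a pseudogene on the X chromosome, read 0.12, 0.16, 0.61 and 0.20 (mean 0.27 ± 0.225, limma, adjusted p = 0.585), and was well above background in 4 of 4 mutant but only 2 of 4 control channels. On arrays 1 and 2 H1f0 was below 0, while H1fx and the 5 clustered H1 genes were above.

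Genes that make or use histone mRNAs and proteins were set beside them. In the list of histone gene transcription and mRNA 3′ end processing, 10 of 23 tested genes had a mean above 0 and 13 below, with a median of -0.026, and 0 passed. Slbp, which binds the stem loop, was the lowest of them and below 0 on all arrays, at -0.45, -0.29, -1.20 and -0.52. Its mean was -0.62 ± 0.40 (SD, n = 4; limma, adjusted p = 0.585). Zcchc11, a terminal uridylyl transferase that can tag histone mRNAs for decay, was above 0 on all arrays, at 0.083, 0.12, 0.54 and 0.54 (mean 0.32 ± 0.25), but had a mean of 0.12 over all its probes. Srrt read -0.14, -0.40, -0.81 and 0.29, and Cpsf1, a subunit of the cleavage and polyadenylation complex, had a mean of -0.14. Read as labelled, the list median was -0.0088, and Slbp had a mean of 0.25 and Zcchc11 one of -0.22.

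Histone chaperones had a median of -0.079, with 19 of 33 means below 0, and replication and S phase genes one of -0.072, with 32 of 38 below 0. On arrays 1 to 4 the S phase median was -0.093, -0.15, -0.044 and 0.012, against 0.10, 0.026, 0.20 and 0.29 for clustered histone genes. The medians of the S phase list and the clustered histone genes lay on opposite sides of 0 on arrays 1 to 3. The list also holds genes such as Ccne1 and Mki67, and its genes need not peak together with histone genes. Asf1b, which hands new H3 and H4 to chromatin assembly, was below 0 on all arrays (mean -0.16 ± 0.125), as were Hjurp, the chaperone of the centromeric H3 (-0.21 ± 0.215), and Oip5, which loads it (-0.37 ± 0.52). Mis18a, a partner of Oip5, had a mean of -0.24 ± 0.30. In the S phase list Pola2, a subunit of DNA polymerase alpha, read -0.21, -0.23, -0.45 and -0.51 (mean -0.35 ± 0.15; limma, adjusted p = 0.585). Mcm4, of the replicative helicase, had a mean of -0.24, Prim2, of the primase, one of -0.24, and Mki67, a proliferation marker, one of -0.23. With the mean of a gene's probes, Hjurp had a mean of only -0.084 and Prim2 one of -0.12. Read as labelled, the S phase median was -0.037, with 22 of 38 below 0, on the same side of 0 as the clustered histone median of -0.14, and that of the chaperones was -0.0057.

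**Figure D4:**
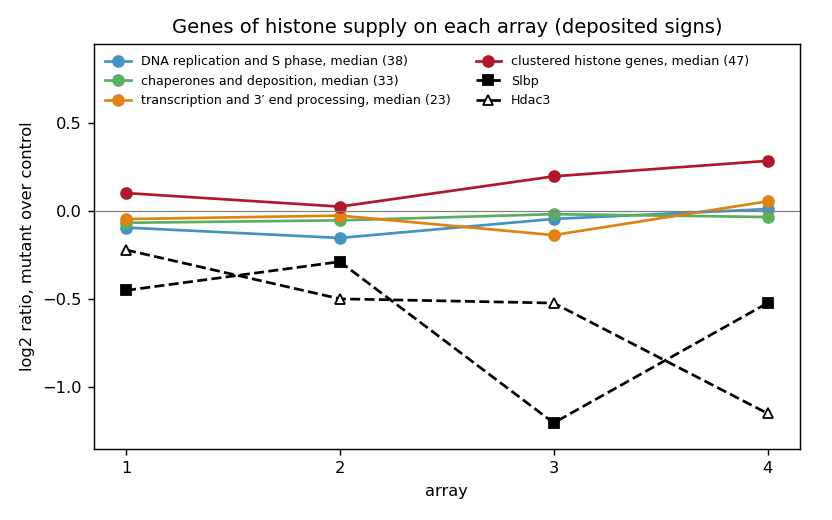
The plot gives log2 ratios (mutant over control, deposited signs, y axis) on arrays 1 to 4 (x axis) for the medians of 3 gene lists of histone supply and of the clustered histone genes, with the single genes Slbp and Hdac3; lines join a list or gene and carry no order. Slbp and Hdac3 lie below 0 on each array, and the 3 list medians lie between -0.15 and 0.056.

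The Hdac3 probe read -0.22, -0.50, -0.52 and -1.15, with a mean of -0.60 ± 0.39 (SD, n = 4; limma, adjusted p = 0.585), and 0.24 as labelled. The sources used here do not give whether the probe lies in the deleted part. Marker lists of other cell types also had medians away from 0, with 0 of their genes passing. Their summed signals are by channels assigned with the deposited signs. Primitive erythroid genes had a median of -0.29, with 12 of 14 below 0 and summed processed signals of 229099 to 369149 in mutant and 338847 to 470192 in control channels. Endocardial genes had a median of 0.19 (8 of 12 above 0) with summed signals of 22892 to 49633 and 22823 to 31380. Liver and foregut genes had a median of 0.26, with all 10 tested of 14 above 0 and sums of 18992 to 41847 and 18998 to 31330, while Apoa1 and Foxa1 were well above background in no channel. Cardiomyocyte genes had a median of 0.067, with sums of 1032788 to 1382643 and 908793 to 1427583. Read as labelled, the list that stood out changed. Cardiomyocyte genes then had a median of 0.26 with 13 of 14 above 0, while the erythroid median was -0.023 (6 of 14 above 0), the endocardial -0.055 (4 of 12) and the liver and foregut -0.01 (5 of 10). The part of cell makeup in the histone values was not tested, and in whole hearts fewer cells of a type and less RNA per cell cannot be told apart.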

How the data were processed

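The histone genes and gene lists were chosen with earlier results of these data known. Each array's scanner output holds, per the file headers, spot and processed intensity in both dyes and their log10 ratio (Cy5 over Cy3). It came from Agilent Feature Extraction 11.5.1.1, whereas version 8.5.1.1 stands in the submitters' processing notes. The processed signals were background-subtracted and dye-normalized by that software, per the file headers. The authors deposited a table of log2 ratios, mutant against wild type by its column names, with a normalization not given in the sources used here; the columns had medians of -0.029, -0.017, 0.017 and 0.023. Rows were joined to probes by probe name, and 153 of 43173 rows matched no gene probe.

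Each deposited column was set against its array's scanner ratio, over probes with mean signals above 2000, and had slopes of 1.03, 1.01, -0.99 and -1.01. Channels were assigned to mutant and control by these signs. Per channel, 66.6% to 71.2% of probes were well above background. The number of arrays limits the precision. Ratios of 19598 genes were tested against 0 in R 4.3.3 with limma 3.58.1 (lmFit, eBayes, two-sided, Benjamini-Hochberg, threshold 0.05), and the steps were tested on simulated data. An exact sign test on 4 arrays cannot go below a p of 0.125. The pairing of pools on an array is inside each ratio. No p-value was computed for a list or class.

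Genes named were Hdac3, every variant that passed the filter, the 5 clustered genes of highest mean, of lowest mean and of brightest signal, and the 4 of smallest p in each list of histone supply. Further members are named where a probe or promoter sequence is shown, or as an example of a family's values, and these were chosen after their values were seen. Alternatives were scanner ratios after normexp (offset 50) and loess, the software's own ratio, all arrays as labelled, a dye term, median centring, other filters, the mean of a gene's probes, array weights, no replicate block and each replicate left out. Added after seeing the data were arrays 1 and 2 only, arrays 3 and 4 only and 1 value for each shared reading. Promoters came from RefSeq (GRCm38.p6), found through transcript accessions or symbols for 52 of 64 genes. The probe positions are those in the files.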

Additional observations from a re-analysis of the deposited data

Results flagged for a closer look

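Of 48 sets of 4 array values tested, those of the 41 named genes and of 7 class or family medians, 5 had a value far from the other 3, and chance gives about 1 in 20. H1f0 was at 0.538 on array 4 and below 0 on the others. H2afb2-ps was at 0.607 on array 3, where its other values were 0.12 to 0.20. Hist1h3f was at -0.509 on array 3, and the chaperone gene Oip5 was at -1.136 on the same array. The clustered H2A median was at -0.181 on array 4, against 0.14 to 0.16 on arrays 1 to 3.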

How the results depend on the processing

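Reading all arrays as labelled gave 141 called genes in place of 0, medians of -0.1355 for clustered and -0.0555 for variant genes, and a difference of -0.0800. It turned 22 of 41 named genes: Hist1h1b (-0.3855), Hist1h1e (-0.2682), Hist2h2bb (-0.2898), Hist2h3b (-0.3570), Hist1h3c (0.3887), Hist1h3f (0.1442), H1foo (-0.0465), H2afb2-ps (-0.1313), H2afx (-0.3857), H2afy2 (-0.1385), H2afy3 (-0.3265), H2afz (0.1678), H3f3a (0.1077), Hdac3 (0.2382), Slbp (0.2470), Zcchc11 (-0.2198), Hjurp (0.1153), Mis18a (0.0602), Oip5 (0.2258), Pola2 (0.1285), Mcm4 (0.1737) and Prim2 (0.2425). The 5 clustered H1 genes had means above 0 in all the other settings run.

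Array weights, which favoured arrays 1 and 2 (3.26 and 2.18 against 0.284 and 0.497), gave 4 calls, a clustered median of 0.0568 in place of 0.144 and a variant median of -0.0183, and turned H2afx (-0.2767), H2afy2 (-0.0048), H2afy3 (-0.1040), Hist1h3c (0.0106) and Hist1h3f (0.0969). Arrays 1 and 2 only gave 31 calls, 0 of them histone genes, a clustered median of 0.061 and a difference of 0.0535, and 7 named genes were of opposite sign there, against 10 on arrays 3 and 4 only. The fit with no replicate block, which drops the pairing of pools on scanner values, gave 0 calls, 338 genes above and 317 below 0 at an unadjusted p below 0.05, 4 of them histone genes above. The same scanner values (normexp and loess) with the pairing gave 760 and 805, 11 and 1 of them histone genes, and both put Hist1h2aa at 0.0029. Unadjusted counts, 760 and 896 with deposited ratios, were 1482 and 1474 as labelled, 1415 and 1573 with a dye term, 2445 and 2110 with array weights, 2723 and 2509 on arrays 1 and 2 only and 1406 and 1529 on arrays 3 and 4 only. The causes were not tested.

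Leaving out each replicate in turn gave 0 to 2 calls (2 without replicate 1), clustered medians of 0.0983 to 0.2030, variant medians of 0.0020 to 0.0690 and differences of 0.0867 to 0.1403. Signs turned within these ranges for H2afj (-0.0663 to 0.2267), H2afv (-0.0633 to 0.0193), H2afx (-0.2250 to 0.1553), H2afy3 (-0.0173 to 0.2653), H3f3a (-0.1650 to 0.0363), H3f3b (-0.1433 to 0.0233), Hist1h2aa (-0.1113 to 0.0823), Hist1h2af (-0.0250 to 0.3283), Hist1h2ah (-0.0677 to 0.3030), Hist1h2ak (-0.0483 to 0.2540), Hist1h3c (-0.4360 to 0.0037) and Hist1h3f (-0.0930 to 0.1307). At an unturned sign, 29 of 41 named genes moved by over 1.5 times with a replicate left out, such as Hist1h1e (0.2817 to 0.5930) and Oip5 (-0.4737 to -0.1123), and 8 with the mean of a gene's probes. Of 572 values of named genes under these alternatives, 526 kept their sign. With 1 value for each shared reading the clustered median was 0.163, and the variant median, without H2afj, was 0.0464.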
